A study of Gallus gallus with 24 samples.

Results

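In embryonic chicken hindlimb libraries, 52 of the 30108 genes in the deposited table met a rule for much higher levels in one set of libraries than in the rest. It is these 52 genes that are described here. They were chosen on measured values. A library was called high when ENSGALG00010011988, the marker gene, reached 50 CPM (reads per 1000000 reads of the library) and low otherwise. A gene became a member when it averaged at least 2 CPM over the high libraries and its mean log2(CPM + 1) was at least 1.5 above that of the low libraries. The difference between high and low libraries therefore selected the members and is given as a description without a test.

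The study sampled interdigital region 3 of the hindlimb, the soft tissue between neighbouring digits, from Gallus gallus embryos incubated for 7 days plus 4, 6, 8 or 11 h. Each time had 6 libraries, 24 in all, prepared with Lasy-Seq, a multiplexed RNA sequencing protocol. The labels name no genetic alteration or agent, and give incubation time as the one thing that differs between groups. Separate embryos are not stated as the source of the libraries of a time, and the p-values below cover only how far these libraries spread, which may be technical.

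In birds, females carry a Z and a W sex chromosome and males a pair of Z chromosomes. The W chromosome holds a small set of genes, most of which have a related copy on the Z, and W genes are transcribed in females alone. The chicken W also holds a gene family present in many near-identical copies, HINTW. The rule offers the members as candidates for W linkage. Whether they lie on the W was not tested: the 25635 genes of the RefSeq table at hand (170 of them on W) carry 0 Ensembl identifiers, and 0 members could be matched. For the same reason no gene name or role is given, and the tissue could not be checked against its defining markers.

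The high class held 13 libraries, namely replicates 1, 3 and 6 at 4 h, replicates 4, 5 and 6 at 6 h, replicates 2, 4 and 5 at 8 h, and replicates 1, 2, 4 and 5 at 11 h. The low class held the remaining 11, with 3, 3, 3 and 2 libraries at the successive times. Depth was 690847 to 6060955 reads in the high libraries and 1794673 to 8134730 in the low libraries. The 3 libraries under 1000000 reads (6 h replicate 5, 8 h replicate 2 and 8 h replicate 5) were all high.

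The marker set the classes far apart. ENSGALG00010011988 ran from 533 to 1024 CPM in the high libraries, with a median of 731 and a mean of 720.2 ± 130.7 (SD, n = 13). In the low libraries it ran from 3.62 to 9.42 CPM, with a median of 5.36 and a mean of 6.07 ± 1.90 (SD, n = 11). No library lay between the classes, and the lowest high library stood 56.6-fold above the highest low library.

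Summed over the 52 members, the level was 4487 ± 479 CPM in the high libraries (SD, n = 13), from 3760 to 5482 with a median of 4408. In the low libraries it was 168.1 ± 50.5 CPM (SD, n = 11), from 102.7 to 246.8 with a median of 150.1. The members thus took 0.376% to 0.548% of the reads of a high library, and the lowest high sum was 15.2-fold above the highest low sum. Leaving out the 3 shallow libraries gave 4604 CPM in the high libraries.

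**Figure D1:**
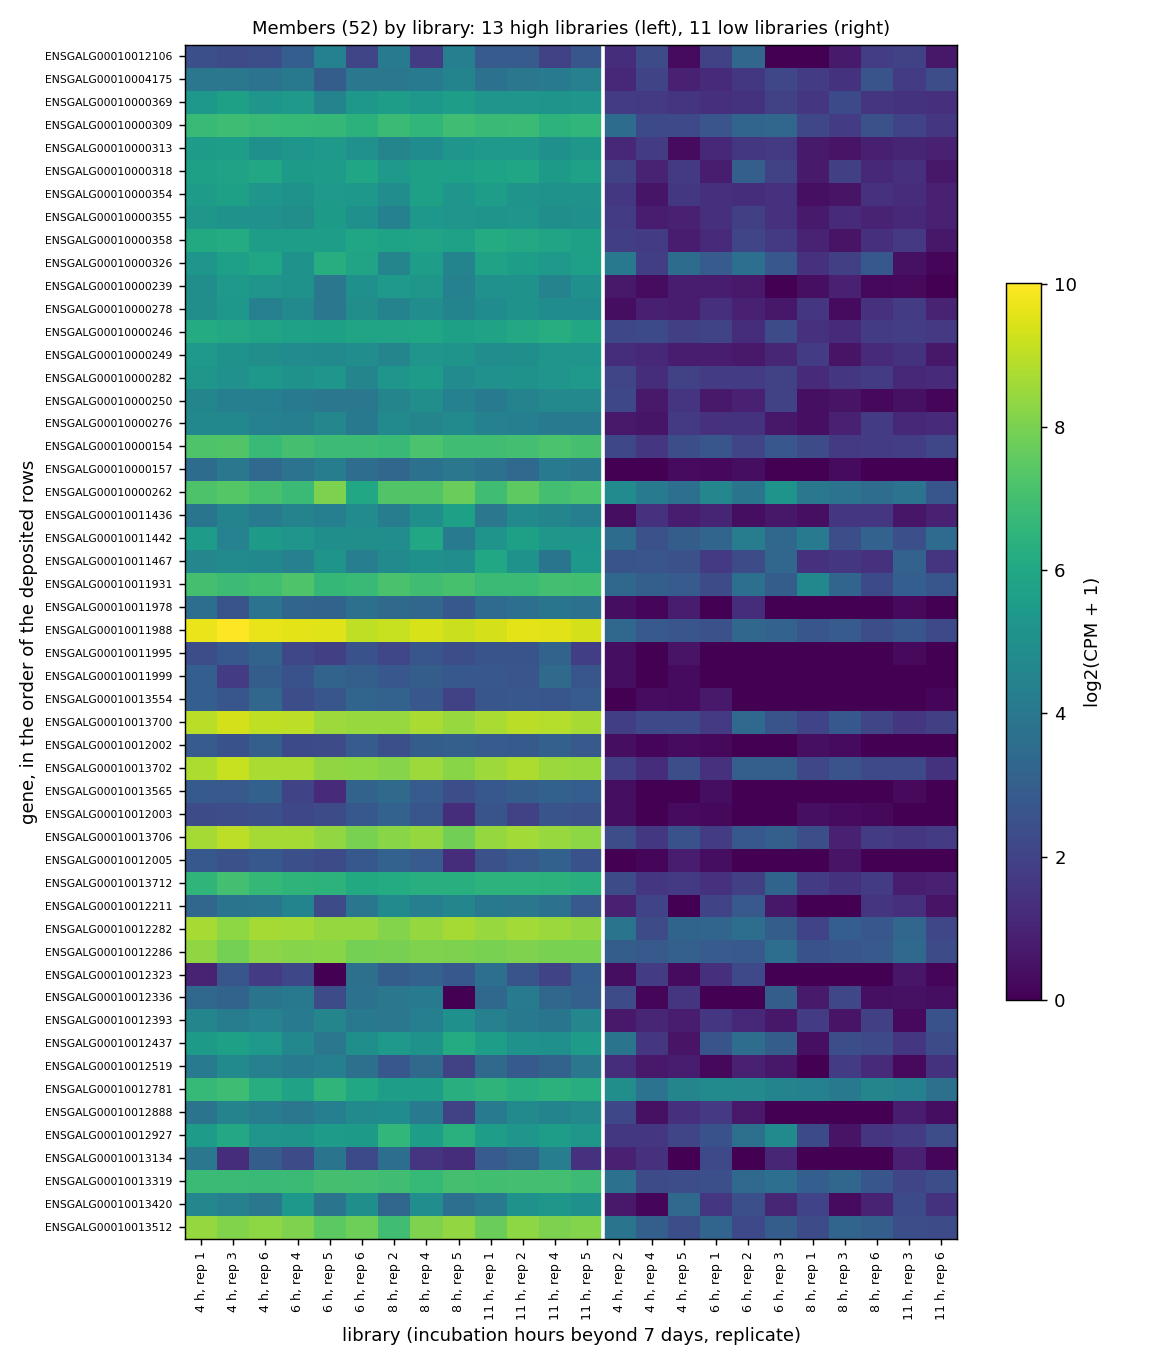
Level of each of the 52 members (rows, in the order of the deposited table) in each of the 24 libraries (columns; 13 high libraries left of the white line, 11 low libraries right of it), as log2(CPM + 1) by colour. The marker ENSGALG00010011988 is the brightest row, at 533 to 1024 CPM in the high libraries, and most rows darken across the line without reaching 0 in every low library.

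Of the 12622 genes that averaged at least 2 CPM over the high libraries, 0.412% met the member rule. In the other direction, 4 of 12615 genes with at least 2 CPM over the low libraries (0.0317%) were 1.5 or more lower in the high libraries on the log2(CPM + 1) scale. Every high library lay above every low library for 44 of the 52 members, and these were the only such genes among the 12622 (0.349%). The reverse separation was seen for 22 of the 12615 (0.174%). The rule chose members on this contrast, so these counts describe the choice.

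In 8 members the classes overlapped. 2 of them were listed at 0 in 1 high library: ENSGALG00010012323 in 6 h replicate 5 and ENSGALG00010012336 in 8 h replicate 5. In those shallow libraries 3 reads correspond to 4.01 and 4.34 CPM. Over the 10 deeper high libraries the 2 genes averaged 5.87 and 11.7 CPM. The part of depth in these 0 values was not tested. Without the 3 shallow libraries the number of members with no overlap was 48 in place of 44. Fewer libraries make such a separation easier for any gene, and the number over all genes without them is not given here.

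Members differed widely in level. Mean CPM over the high libraries ran from 4.47 to 720.2 with a median of 32.8. It was under 10 CPM for 10 members, 10 to 50 for 24, 50 to 100 for 6 and 100 or more for 12. The 5 most read members held 50.5% of the summed level, and the marker alone 16.1%. CPM is not divided by transcript length, which the table does not give, so this is an order of reads and not of transcript number.

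ENSGALG00010013700 came next after the marker, at 348 to 663 CPM in the high libraries (median 428, mean 450.2 ± 90.7, SD, n = 13) and 1.97 to 9.57 CPM in the low libraries (median 3.22). The weakest members were ENSGALG00010012003, at 4.47 ± 1.52 CPM in the high libraries (1.45 to 7.83), and ENSGALG00010011995, at 4.84 ± 1.76 CPM (2.61 to 8.21). Their highest low values were 0.335 and 0.458 CPM, so the classes did not overlap, but this separation rests on few reads. The lowest high value of ENSGALG00010012003 was 1 read, in 8 h replicate 5, and ENSGALG00010011995 had 2 or 3 reads in each of the 3 shallow libraries.

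The log2 difference ran from 1.55 to 6.70 over the members, with a median of 3.53. Just inside the threshold stood ENSGALG00010012106 at 1.55 and ENSGALG00010012323 at 1.80. Just outside stood ENSGALG00010022874 at 1.46 (12.7 CPM in the high and 4.06 CPM in the low libraries) and ENSGALG00010015151 at 1.31. No member was close to the minimum level. The genes under 2 CPM with the greatest differences were ENSGALG00010012836, at 1.64 CPM and a difference of 0.96, and ENSGALG00010012009, at 1.05 CPM and 0.93. Because 1 is added to CPM before the logarithm, genes near 2 CPM could hardly reach the threshold: among genes of at least 2 CPM over the high libraries, 23 that were not members had a low level under 10% of their high level, none of them above 3.37 CPM.

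ENSGALG00010012106 was the one member that depended on the shallow libraries. It read 20.1, 16.8 and 18.8 CPM in the 3 of them and 2.31 to 6.93 CPM in the other 10 high libraries. Without them its mean was 4.59 ± 1.57 CPM (SD, n = 10) and its log2 difference was 1.12, under the threshold.

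The position of the members in the deposited table was not used by the rule. What the order of the rows follows is not given in the sources used here, so a row number is not a genome position. Of the 52 members, 50 lay in 2 runs in which neighbouring members were at most 50 rows apart. The remaining 2 were ENSGALG00010012106 in row 1433 and ENSGALG00010004175 in row 3711. The latter read 6.68 to 21.7 CPM in the high libraries (median 14.6) and 0.915 to 5.08 CPM in the low libraries (median 2.32), without overlap.

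The first run spanned rows 27837 to 27878 and held 18 members among 42 rows. All 18 of its genes with at least 2 CPM over the high libraries were members. Its members summed to 923.8 CPM in the high and 50.7 CPM in the low libraries. ENSGALG00010000262 was the most read of them, at 62.0 to 262 CPM in the high libraries (median 146.9) and 5.35 to 35.7 CPM in the low libraries (median 13.5). A further 21 genes of the run had reads but stayed under 2 CPM, so the rule could not choose them. Together they held 435 reads in the high libraries and 18 in the low libraries. As pooled reads over pooled depth this is 8.88 and 0.337 CPM, whereas the member sums above are sums of means over libraries. Of these 21 genes, 9 had reads in high libraries alone and 0 in low libraries alone. The share of such genes among all genes under 2 CPM is not given here, so these counts cannot be set against it.

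The second run spanned rows 28291 to 28434 and was mixed. It held 32 members among 79 genes with at least 2 CPM, or 40.5%. The 47 genes between them that were not members differed by -0.73 to 1.25 on the log2 scale, with a median of 0.11. Its 49 weak genes under 2 CPM held 945 reads in the high and 798 in the low libraries. Of these, 9 had reads in high libraries alone and 2 in low libraries alone. Members of the second run summed to 3541 CPM in the high and 112.7 CPM in the low libraries.

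**Figure D2:**
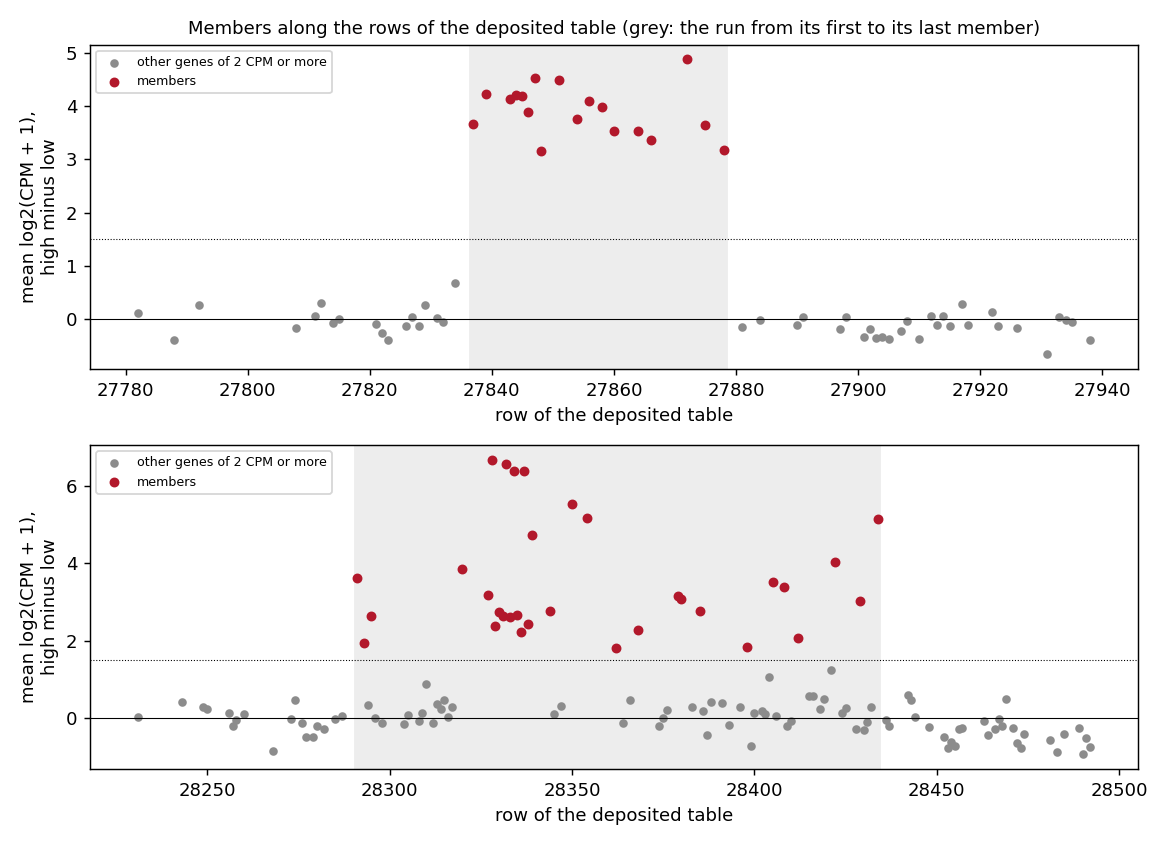
Mean log2(CPM + 1) in high minus low libraries (vertical axis) against the row of the deposited table (horizontal axis) around the 2 runs, shaded from first to last member; red points are members, grey points are other genes of at least 2 CPM over the high libraries, and the dotted line is the threshold of 1.5. All 18 such genes of the first run are members, whereas members of the second run stand among 47 genes between -0.73 and 1.25.

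The bounds of the runs were drawn from the members, so other thresholds that share these members cannot test the runs. With a minimum difference of 1, 64 genes met the rule, among them all 52 members. Of the 64, 52 lay within the runs and 12 outside, and of 12 added genes 2 lay within. With a minimum of 2, 48 genes met it, all of them members, and 47 lay within the runs.

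Within the second run, the 13 consecutive rows 28327 to 28339 were all members. They fell into 5 genes of 86.9 to 720.2 CPM (the marker, ENSGALG00010013700, ENSGALG00010013702, ENSGALG00010013706 and ENSGALG00010013712) and 8 genes of 4.47 to 10.1 CPM, a division at 50 CPM made after the values were seen. This block summed to 2041 CPM in the high and 20.9 CPM in the low libraries, which is 45.5% of the summed member level in the high libraries. The 8 weak genes held 49 reads in all 11 low libraries together. Whether the deposited counting could tell these genes apart from each other is not given in the sources used here, so the values of single genes of the block are uncertain.

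Across the 13 high libraries the 5 more abundant genes of the block moved together. The Pearson correlation of log2(CPM + 1) was 0.87 to 0.98 between pairs of them, with a median of 0.93. Its lowest value was 0.95 without the 3 shallow libraries and 0.72 on deviations from the mean of each time. All pairs share the same libraries and depths, and the values are descriptions without a test.

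Among the 7208 other genes of at least 10 CPM over the high libraries, the 3 whose pattern was most like that of the marker were ENSGALG00010013712 (r = 0.95), ENSGALG00010013706 (0.94) and ENSGALG00010013700 (0.93). Spearman's rho was 0.95, 0.95 and 0.93 for them, and r was 0.89, 0.88 and 0.88 without the 2 libraries farthest from the marker's median. ENSGALG00010013702 was in place 4 (0.91), just ahead of ENSGALG00010028368 (0.91), which is not a member. Over the 37 members of at least 10 CPM outside the 5 abundant genes of the block, r with the marker had a median of 0.20 and ran from -0.43 to 0.64, beside a median of 0.09 over all genes compared.

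Between high libraries, most members of at least 10 CPM had a smaller spread than the median gene. The SD of log2(CPM + 1) over the 13 libraries had a median of 0.29 for the 42 members of at least 10 CPM and of 0.47 for all 7209 genes of that level, and 31 of the 42 lay below the latter. Members and all genes were not matched for level above 10 CPM, so a difference in level could not be told apart from one in spread. ENSGALG00010013319 had the smallest SD, 0.12, with values from 102 to 131 CPM (median 121, mean 119.1 ± 10.2, SD, n = 13). ENSGALG00010012336 had the greatest, 1.11, with values from 0 to 16.5 CPM (median 9.16). Its SD was 0.41 over the 10 libraries of at least 1000000 reads.

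Every member had some reads in the low libraries. All 52 had at least 2 reads there, and 35 had reads in every one of the 11 low libraries. The other 17 had no read in some low libraries, and ENSGALG00010011999 had reads in 2 of them. Whether the reads in the low libraries came from transcription of the members was not tested. A member had 2 to 1062 reads over the low libraries, with a median of 94.5, and all members together had 8291, beside 226015 in the high libraries. The number of members without a read ranged from 3 to 13 per low library. It was 13 in 6 h replicate 3, the shallowest of them with 1794673 reads, and 13 in 8 h replicate 1. It was 5 in 4 h replicate 4, the deepest, where 3 reads correspond to 0.369 CPM. The part of depth in this number was not tested. The number was 3 in 4 h replicates 2 and 5 (3397637 and 4370474 reads). In 8 h replicate 6 (5903824 reads) it was 11, and in 11 h replicate 6 (6912031 reads) it was 9.

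The share of the high level that was left in the low libraries, as mean low over mean high CPM, had a median of 4.17% and ran from 0.644% to 28.1%. It was under 1% for 6 members, 1% to 5% for 24, 5% to 10% for 8 and 10% or more for 14. Over the 38 members with at least 50 reads in the low libraries it was 0.842% to 28.1%, a 33.4-fold range with a median of 5.20%. The rule's minimum difference limits how high a share can be.

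**Figure D3:**
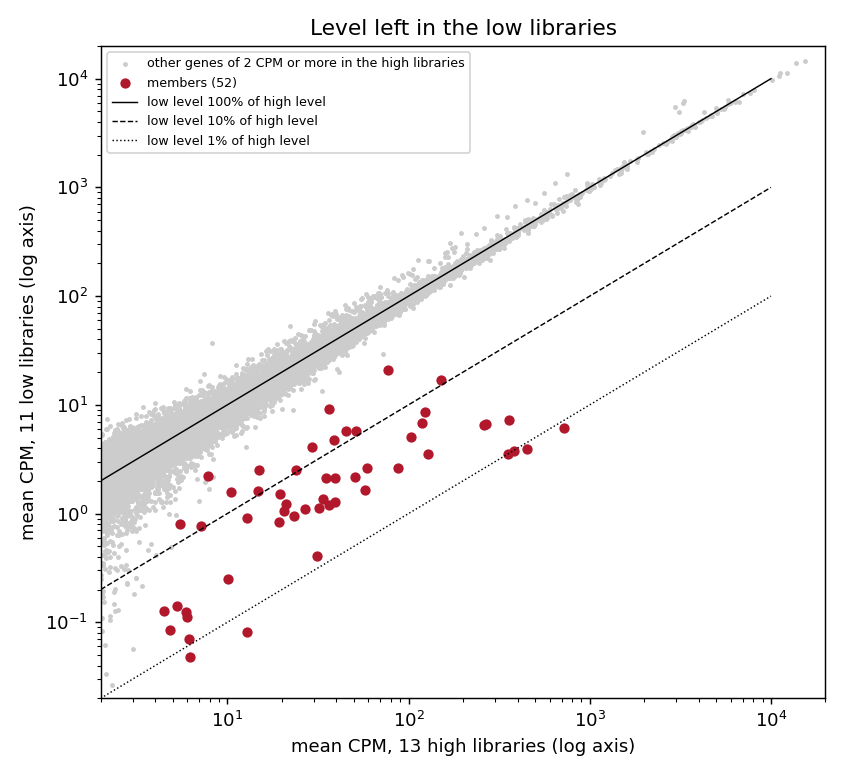
Mean CPM over the 11 low libraries (vertical, log axis) against mean CPM over the 13 high libraries (horizontal, log axis) for the 52 members (red) and the other genes of at least 2 CPM over the high libraries (grey), with lines at 100%, 10% and 1% of the high level. Members spread over the lower lines, from 0.644% to 28.1%, while most other genes lie along the 100% line.

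The lowest shares with at least 50 reads were those of the most abundant genes of the block. The marker kept 0.842% of its high level in the low libraries (301 reads) and ENSGALG00010013700 kept 0.878% (194 reads). ENSGALG00010013702 and ENSGALG00010013706 were close to them, at 0.993% and 0.992%. A high level did not always go with a low share. ENSGALG00010012282, at 360 CPM in the high libraries, kept 2.02% (366 reads), and over all 52 members Spearman's rho between high level and share was -0.10. The levels themselves ranked alike in both classes (rho = 0.83 between mean high and mean low CPM). Both values describe 52 genes measured in the same libraries and chosen on these same levels. The minimum difference limits how high a share can be, more tightly at low levels because of the added 1. The high level is also the denominator of the share. The rule thus shapes both values.

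ENSGALG00010000157 had the lowest share of all members, 0.644%, but it rests on 4 reads in the low libraries. From pooled reads, its share was 0.605%, with a 95% exact interval of 0.164% to 1.56% that covers counting error only.

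At the other end, ENSGALG00010012781 kept 27.1% with 1062 reads. It read 48.1 to 117 CPM in the high libraries (median 74.1) and 12.0 to 29.4 CPM in the low libraries (median 21.7). The classes did not overlap, and all 11 low libraries held it well above the level that 3 reads give. ENSGALG00010012106 had the highest share, 28.1%, and its classes overlapped. Without the 3 shallow libraries its share was 47.8%.

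The residual level differed between low libraries. As a percentage of the mean sum in the high libraries, the summed member level was 5.33%, 2.92% and 3.52% in the low libraries at 4 h. It was 3.85%, 5.35% and 5.50% at 6 h, 3.35%, 2.96% and 3.14% at 8 h, and 3.02% and 2.29% at 11 h. The 3 highest values, all above 5%, belonged to 4 h replicate 2, 6 h replicate 2 and 6 h replicate 3, libraries of 3397637, 3342991 and 1794673 reads, and the lowest to 11 h replicate 6 with 6912031. Other libraries broke this order: 8 h replicate 1, with 2983706 reads, was at 3.35%, and 6 h replicate 1, with 6566495 reads, was at 3.85%. The 3 libraries at 6 h lay above those at 8 h and 11 h, while those at 4 h overlapped every other time. The differences between low libraries, and the part of depth in them, were not tested.

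**Figure D4:**
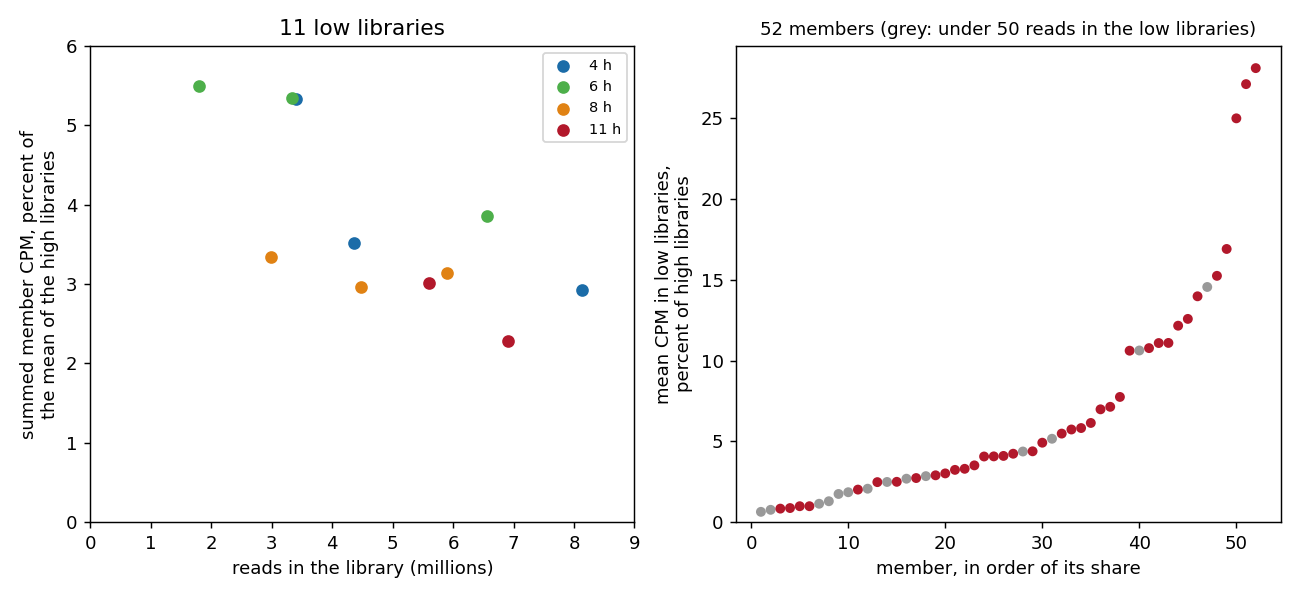
Left, summed member CPM of each of the 11 low libraries as a percentage of the mean sum of the high libraries (vertical) against the depth of the library in units of 1000000 reads (horizontal), coloured by time; right, the share left in the low libraries for each of the 52 members (vertical, percent), in order of size. Library sums lie between 2.29% and 5.50%, and members between 0.644% and 28.1%, grey where fewer than 50 reads stand behind the share.

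Change with time was tested within the 13 high libraries, a contrast that the rule did not use, with limma on log2(CPM + 1) over 12622 genes and Benjamini-Hochberg adjustment at 0.05. None of the 52 members passed in any of the 3 tests (a difference anywhere among the 4 times, a contrast of 11 h with 4 h, and a slope per hour). Over all 12622 genes, 0% passed for any difference among times, 0.00792% for 11 h against 4 h and 0% for the slope. The smallest adjusted p of a member was 0.71, 1.00 and 1.00 in the successive tests (limma). The single gene called was ENSGALG00010007287, which is not a member, higher at 11 h by 2.02 ± 0.30 (log2, SE) with an adjusted p of 0.017 by limma, and its call was lost when any one 4 h or 11 h library was left out.

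Without adjustment, 8 members (15.4%) had a p under 0.05 for any difference among times, beside 6.95% of all genes tested. For 11 h against 4 h it was 1 member (1.92%) beside 2.68%, and for the slope 1 member (1.92%) beside 2.92%. The 8 fell to 2 without the 3 shallow libraries and to 4 under limma-voom on the recovered reads. Leaving out single libraries gave 3 to 10, with 4, 4 and 3 for replicates 1, 3 and 6 at 4 h and 3 each for replicates 2 and 5 at 8 h. The count over all genes moved as well, from 877 in the main test to 532 to 1684 over the alternatives. The number of genes tested also differed between some alternatives. Whether the members lost more than other genes was not tested.

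Between 4 h and 11 h the members' differences were centred near 0. The log2 difference, 11 h minus 4 h, had a median of -0.03 over the members and 0.00 over all genes tested, with 23 members above 0 and 29 below. It ran from -1.01 to 1.05. This split rested on single libraries: without 4 h replicate 3, 11 members were above 0 and the median was -0.14, and without 4 h replicate 1, 29 were above 0 and the median was 0.05. For 31 of the 52 members (59.6%) the 95% interval lay within a 2-fold change either way, as it did for 29.5% of all genes tested, and for the remaining members it reached beyond a 2-fold change. Members and all genes were not matched for level: 42 of the 52 members averaged at least 10 CPM, beside 7209 of the 12622 genes. A difference in level could therefore not be told apart from one in change with time.

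The marker was highest at 4 h, at 835, 1024 and 811 CPM. It read 777, 731 and 533 CPM at 6 h, 570, 672 and 589 CPM at 8 h, and 658, 763, 746 and 654 CPM at 11 h. All 3 libraries at 4 h lay above the 10 later ones, and the later times overlapped. The difference between 11 h and 4 h was -0.30 ± 0.18 (log2, SE; 95% interval -0.68 to 0.07) with an adjusted p of 1.00 by limma.

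ENSGALG00010013700 also had its highest mean at 4 h and its lowest at 8 h. It averaged 563 ± 87.2 CPM at 4 h, 411 ± 85.5 at 6 h, 374 ± 44.8 at 8 h (SD, n = 3 each) and 452 ± 39.5 at 11 h (SD, n = 4). The unadjusted p for any difference among times was 0.022 for the marker, 0.025 for ENSGALG00010013700, 0.035 for ENSGALG00010013702 and 0.031 for ENSGALG00010013706 (limma), each with an adjusted p of 0.71. These 4 of the 8 members are not separate observations, given their correlation across libraries.

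The member sum stood at 5114 ± 336 CPM at 4 h, then 4219 ± 434 at 6 h, 4142 ± 320 at 8 h (SD, n = 3 each) and 4478 ± 257 at 11 h (SD, n = 4). Much of this difference lay in the 5 abundant genes of the block, which summed to 2473 ± 368, 1858 ± 342, 1671 ± 188 and 1971 ± 163 CPM at the successive times. The other 47 members summed to 2641 ± 110.2, 2361 ± 108 and 2471 ± 237 CPM at 4, 6 and 8 h (SD, n = 3 each) and 2506 ± 104.7 CPM at 11 h (SD, n = 4). Their sums overlapped between 4 h and 11 h, and their lowest mean was at 6 h, not at 8 h. In CPM as deposited, these sums at 6 h (2237 to 2431 CPM) lay below all those at 4 h (2571 to 2768 CPM). They also lay below those at 11 h (2438 to 2662 CPM), though narrowly. The range at 8 h (2213 to 2679 CPM) overlapped that of every other time. The time tests divided CPM by a scaling factor per library, which these sums leave out. It was 0.93, 1.12 and 0.91 in replicates 1, 3 and 6 at 4 h. At 6 h it was 0.93, 1.22 and 0.95 in replicates 4, 5 and 6. Such factors are large enough to change the order of the sums, so the separation of 6 h is given for CPM as deposited only. The library numbers in the descriptions fall into a lower and an upper range, and these moved with time here: all high libraries at 4 h and 11 h were in the lower range, and all at 6 h and 8 h in the upper. The sum was 4750 ± 432 CPM in the lower range (SD, n = 7) and 4180 ± 344 CPM in the upper (SD, n = 6), and the 3 shallow libraries were all in the upper range. Number range and the middle times cannot be told apart in the high libraries, while 4 h and 11 h share the lower range.

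**Figure D5:**
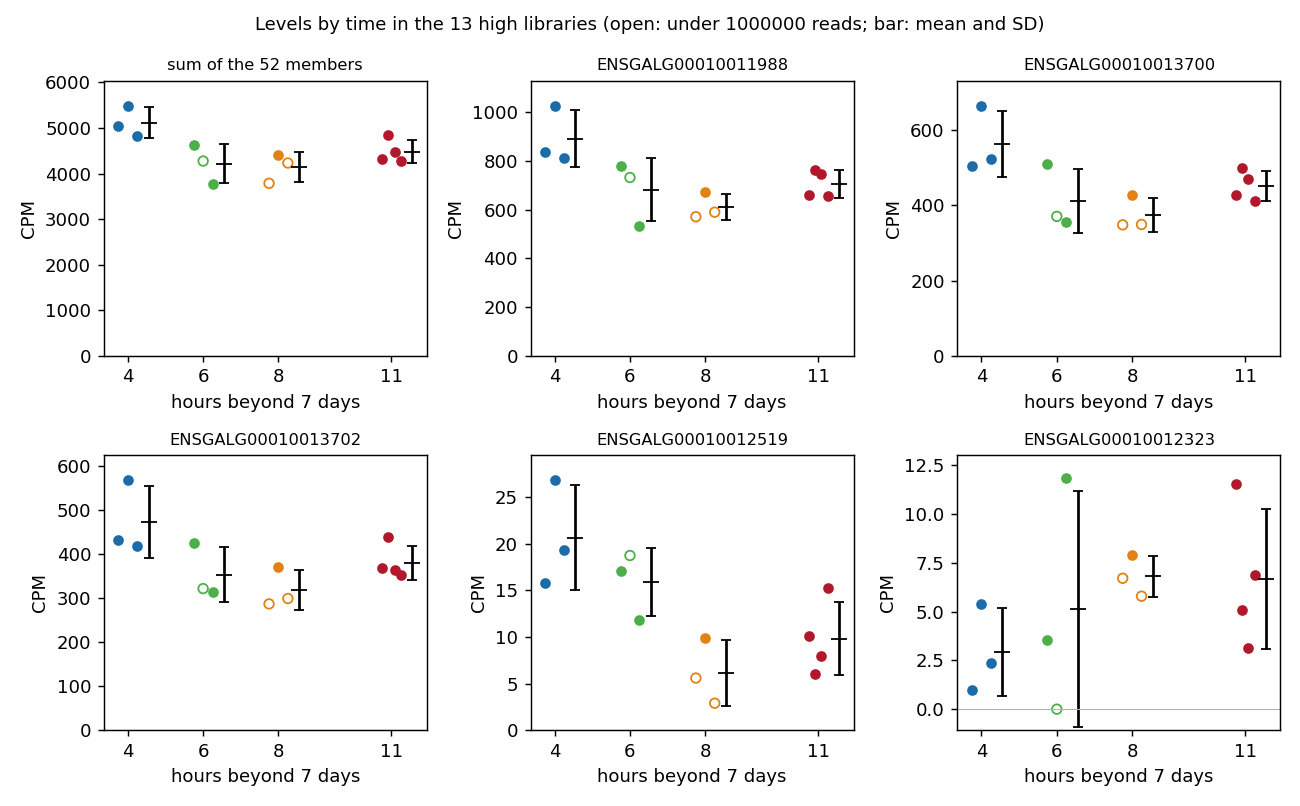
CPM (vertical axis) against incubation time in hours beyond 7 days (horizontal axis) in the 13 high libraries, for the sum of the 52 members and for 5 members; points are libraries, open points those under 1000000 reads, and bars give mean and SD. The 4 h libraries of the marker (811 to 1024 CPM) lie above all later ones, while ENSGALG00010012323 spreads from 0 to 11.8 CPM at 6 h alone, so that its lower SD bar passes below 0.

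ENSGALG00010012519 had the steepest negative slope, -0.16 ± 0.07 per hour (log2, SE). It read 15.8, 26.8 and 19.4 CPM at 4 h, 17.1, 18.7 and 11.8 CPM at 6 h, 5.59, 9.90 and 2.90 CPM at 8 h, and 10.1, 6.05, 7.97 and 15.2 CPM at 11 h. The 4 h and 11 h libraries did not overlap, though by 15.8 against 15.2 CPM. Its log2 difference of -1.01 ± 0.48 (SE) between these times had an unadjusted p of 0.046 and an adjusted p of 1.00 by limma.

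The most positive slopes by moderated t were those of ENSGALG00010012323, at 0.16 ± 0.10 per hour, and ENSGALG00010011467, at 0.07 ± 0.05 per hour (log2, SE), both with an adjusted p of 1.00 by limma. ENSGALG00010012323 read 1.01, 5.41 and 2.35 CPM at 4 h and 11.5, 5.11, 3.13 and 6.88 CPM at 11 h, which overlap. ENSGALG00010011467 read 23.7, 25.6 and 24.4 CPM at 4 h and 62.6, 33.1, 13.95 and 39.2 CPM at 11 h, so that its 11 h libraries lay on both sides of those at 4 h.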

How the data were processed

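The authors deposited 1 table of 30108 Ensembl gene identifiers in 24 libraries. Its values are on a natural log scale, as deposited: exp(value) - 1 sums to 1000000 per library, so they are ln(CPM + 1). Of 406811 values above 0, all but 2 (99.9995% whole) were whole multiples of 1 read within 0.01 read, which gave the reads and depths (690847 to 8134730). Tools listed in the submitters' processing notes are Salmon, fastp 0.21.0 and BWA 0.7.17-r1188. Genome build and annotation: not given in the sources used here.

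Descriptions used CPM as deposited (Python 3.11.15). Time was tested in the 13 high libraries with limma 3.58.1 in R 4.3.3, with an intensity trend, on log2(CPM + 1) after TMM scaling (30% of M and 5% of A trimmed) computed from the recovered reads, for genes averaging at least 2 CPM. The contrast of 11 h with 4 h was also run on simulated counts, without TMM scaling and with changes only in genes of at least 10 CPM. That run does not cover the members under 10 CPM. Its outcome is not given here, so it does not show how small a change the tests could have found. Reads of any 2 libraries of a class and time differed beyond sampling noise (chi-square over degrees of freedom of 8.73 or more), so none was a copy.

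The members and lists were chosen with earlier results of these data known. Genes were named by rule: the marker, the highest and lowest 2 by level, by share (at least 50 low reads) and by slope, the extremes of spread, and those next to each threshold. The other genes with values were chosen after these were seen, as were the runs and the block.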

Additional observations from a re-analysis of the deposited data

How the results depend on the processing

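No member was called for time under any alternative (23 for any difference among times, 23 for 11 h against 4 h, 24 for the slope); the smallest adjusted p of a member was 0.147 to 0.873, 0.459 to 1 and 0.443 to 1 (limma). The alternatives were other size factors, pseudocounts and filters, limma-voom, array weights, leaving out libraries, and a term for number range, which could be fitted for the slope alone. Over all genes, any difference among times gave 1 call under limma-voom, 1 with array weights, 1 without the shallow libraries and 0 to 15 with single libraries left out, 15 without 8 h replicate 4. For 11 h against 4 h the 1 call became 0 with library size only, 0 with no filter, 6 with array weights and 0 to 2 with single libraries left out. For the slope, limma-voom gave 1, array weights 10, leaving out the shallow libraries 1, and single libraries 0 to 1. The cause of these changes was not tested. The median share left in the low libraries was 5.20% over members with at least 50 low reads. The rule found 48 to 64 members over its alternatives.

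The main tests treated libraries as unpaired. Among the 13 high libraries, 0 of 9 same-numbered pairs in different groups correlated above 0.1, and 4 of 13 libraries correlated best with their own number. At 4 h and 11 h, libraries of the same replicate number carry library numbers close together, and so do replicates 2 to 5 at 6 h and 8 h. Of these, only replicate 1 was high at both 4 h and 11 h, and only replicates 4 and 5 at both 6 h and 8 h. With so few such pairs, these correlations cannot decide whether same-numbered libraries were handled together. With a replicate block, 0 members were called, and over all genes 1 was called for any difference among times, 1 for 11 h against 4 h and 0 for the slope. Depth limits the 10 members under 10 CPM most, above all in the 3 libraries under 1000000 reads.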
